A study of Mus musculus with 15 samples.

Results

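Neurotrophic factors are secreted proteins that keep neurons alive and guide their growth, and glial cells carry several of their receptors. The genes described here are Gdnf, Nrtn, Gfra1 and Ret of the glial cell line-derived neurotrophic factor (GDNF) family and Bdnf, Ntf3, Ntrk2 and Ntrk3 of the neurotrophin family. They are 8 listed genes of the 54232 genes in the deposited tables and each was found there by its Ensembl ID. Their levels were described in 15 RNA-seq libraries of mouse brain tumours.

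GDNF family ligands bind a GFRα co-receptor on the cell surface, and the pair of them then activates the receptor tyrosine kinase Ret. GDNF binds mainly Gfra1 and neurturin, the product of Nrtn, binds mainly Gfra2. Neurotrophins bind Trk tyrosine kinases directly: brain-derived neurotrophic factor (Bdnf) acts through Ntrk2 (TrkB) and neurotrophin-3 (Ntf3) mainly through Ntrk3 (TrkC). In brain, Ntrk2 is also made by glia, largely as a form without the kinase domain, and gene counts do not separate the forms.

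All tumours arose in C57BL/6 mice that express the avian virus receptor Tv-a from the Nestin promoter and carry p53 fl/fl. The mice received cortical injections of DF-1 chicken cells producing RCAS viruses with Cre, PDGFA and GFP-tagged H3.3. The 4 groups combine 2 factors: Atrx-floxed tumours (p53 fl/fl and ATRX fl/fl) with H3.3G34R (n = 4), Atrx-floxed tumours with H3.3WT (n = 4), Atrx-intact tumours (p53 fl/fl alone) with H3.3G34R (n = 3) and Atrx-intact tumours with H3.3WT (n = 4). H3.3G34R is the histone substitution of some human hemispheric gliomas, and Atrx codes for a remodeller of chromatin that loads H3.3 onto DNA. The PDGFA and Cre viruses and the floxed p53 allele are shared by every group, and a Nestin-expressing cell is the cell that can be infected. Tumours were taken from the frontal cortex at functional end point. The labels used here give neither age nor sex, and do not say that each library is a separate mouse, so p-values measure the spread between these libraries.

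Libraries held 22807315 to 35679129 reads in genes. Atrx averaged 2288 ± 794 normalized counts in Atrx-floxed H3.3G34R and 2463 ± 494 in Atrx-floxed H3.3WT tumours (SD, n = 4 each), against 6296 ± 1450 in Atrx-intact H3.3G34R (SD, n = 3) and 6980 ± 1490 in Atrx-intact H3.3WT tumours (SD, n = 4). Atrx did not overlap between floxed libraries, at most 3124, and intact libraries, at least 5143. Trp53 counts ran from 510.8 to 2128 over all libraries; the gene count does not show which exons remain. Xist had 6.801, 6.098, 14620 and 27.73 normalized counts in Atrx-floxed H3.3G34R and 22.49, 10670, 9.584 and 31170 in Atrx-floxed H3.3WT tumours. Atrx-intact tumours held 21880, 6.92 and 42100 with H3.3G34R, and 36220, 1.063, 16840 and 30450 with H3.3WT. High and low Xist libraries were thus unevenly spread over the groups. Some libraries stood apart by cell type markers. Replicate 3 of the Atrx-intact H3.3WT tumours held 210600 summed normalized counts of 8 neuron markers, against 426.3 to 14930 in the other libraries, and the lowest sum of 6 oligodendrocyte progenitor markers, 24660, against 153200 to 425000 in the others. It also held the highest sums of astrocyte markers (253300, against 25010 to 73080), mature oligodendrocyte markers (100400, against 10470 to 93700) and microglia and macrophage markers (29360, against 3208 to 16760). Replicate 1 of the Atrx-floxed H3.3WT tumours held the highest sums of endothelial markers (66540, against 6255 to 16550 in the others) and of pericyte and fibroblast markers (103700, against 4474 to 26510). Replicate 3 of the Atrx-floxed H3.3G34R tumours held the second highest sums of 3 lists. These were mature oligodendrocyte (93700, next 38400), neuron (14930, next 4322) and astrocyte markers (73080, next 43110). Replicates 1 and 4 of the Atrx-floxed H3.3G34R tumours, 2 and 3 of the Atrx-intact H3.3G34R tumours, and 3 and 4 of the Atrx-intact H3.3WT tumours share a code in their titles that the labels do not explain. In bulk tissue, fewer cells of a type and less RNA per cell cannot be told apart.

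Stretches upstream of Gdnf and Bdnf are shown, since much of the description below concerns these ligands. They are the 250 bases before each annotated start in RefSeq (GRCm38.p6), which holds windows for 6 of the 8 genes. In the Gdnf windows the capitals mark CG pairs, the sites that DNA methylation can mark.
Gdnf chr15:7809798-7810047, plus strand: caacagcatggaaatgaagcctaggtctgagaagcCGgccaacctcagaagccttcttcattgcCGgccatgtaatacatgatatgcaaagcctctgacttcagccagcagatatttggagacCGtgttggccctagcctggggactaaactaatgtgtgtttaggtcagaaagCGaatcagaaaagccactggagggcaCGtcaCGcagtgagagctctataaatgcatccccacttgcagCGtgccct
Gdnf chr15:7813477-7813726, plus strand: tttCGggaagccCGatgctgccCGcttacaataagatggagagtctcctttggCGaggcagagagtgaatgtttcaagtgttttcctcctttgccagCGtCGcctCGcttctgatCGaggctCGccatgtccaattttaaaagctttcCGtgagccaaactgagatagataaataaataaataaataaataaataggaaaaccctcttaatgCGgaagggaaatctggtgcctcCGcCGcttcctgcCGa
Bdnf chr2:109692186-109692435, plus strand: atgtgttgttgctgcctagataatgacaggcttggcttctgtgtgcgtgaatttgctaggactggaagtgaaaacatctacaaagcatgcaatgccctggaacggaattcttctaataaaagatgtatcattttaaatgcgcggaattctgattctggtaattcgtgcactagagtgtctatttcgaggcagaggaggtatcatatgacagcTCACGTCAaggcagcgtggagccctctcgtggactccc
The first Gdnf window holds 7 CG pairs and the second 14, against a median of 6 over 32851 windows of the same length in the table; 46.3% and 29.4% of all windows hold as many. The capitals in the Bdnf window mark TCACGTCA, a calcium- and cAMP-response element known from the activity-regulated promoter of this gene. TCACGTCA, read on both strands, lies in 1 of the 7 Bdnf windows and in 0.35% of all windows. These matches describe the sequence only.

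Per length, 3 of the 4 receptors were the most abundant members, and Ret and the ligands were scarcer. Levels divided by the summed exon length of GENCODE vM21 averaged 1150 normalized counts per kb for Gfra1, 750 for Ntrk2 and 237 for Ntrk3 over the 15 libraries. Gdnf averaged 86.1 per kb, Ret 44.1, Nrtn 22.6, Bdnf 17.7 and Ntf3 1.06. Ntrk2 lay above Ntrk3 in 15 of 15 libraries, Ntrk3 above Gdnf in 13 and Gfra1 above Ntrk2 in 12. The order was loose among the scarce genes: Gdnf lay above Ret in 13 libraries, Ret above Nrtn in 9, Nrtn above Bdnf in 9 and Bdnf above Ntf3 in 14. The exon lengths of Ntrk2 (19292 bases) and Ntrk3 (30170 bases) join all annotated forms, so levels per kb of these genes are low estimates if shorter forms dominate.

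**Figure D1:**
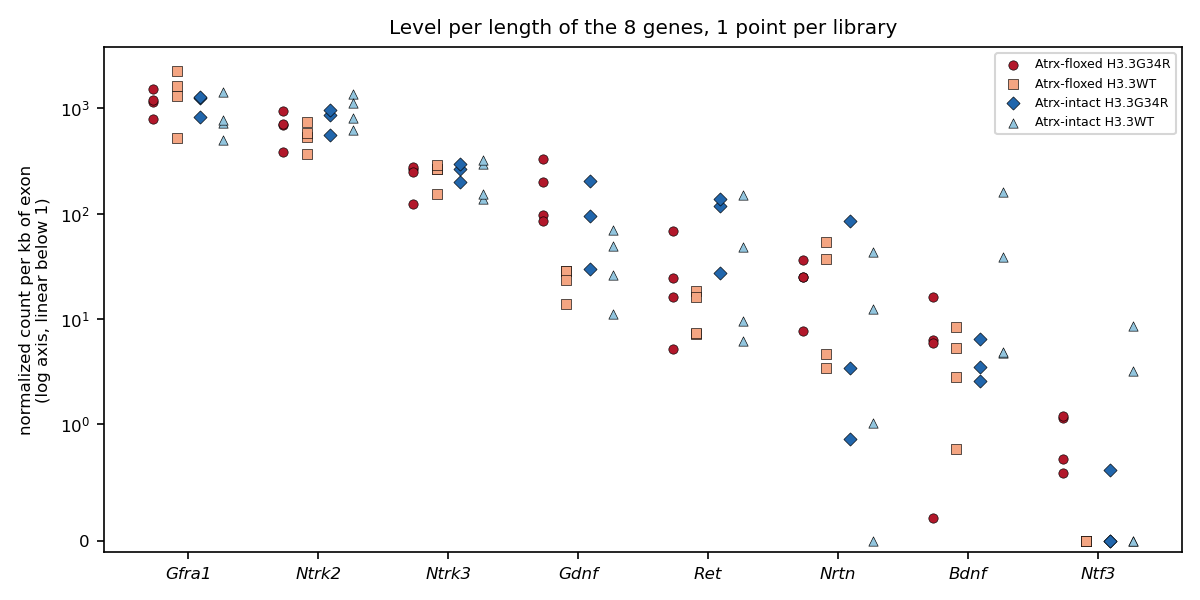
Level per length of each of the 8 genes (vertical axis, normalized count per kb of exon, log axis that is linear below 1) in each of 15 libraries, ordered by mean level. Gfra1, Ntrk2 and Ntrk3 lay above 100 per kb in every library, whereas Gdnf, Ret, Nrtn and Bdnf spread over more than 10-fold.

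Gdnf encodes the ligand of the Gfra1 and Ret receptor (ENSMUSG00000022144, chromosome 15, 7810846 to 7837575, plus strand). Its counts were highest in the Atrx-floxed H3.3G34R tumours: 354.6, 735.8, 314 and 1209 normalized counts, against 50.84, 105.1, 105.4 and 85.19 in Atrx-floxed H3.3WT tumours. Those groups did not overlap: the lowest H3.3G34R library lay above the highest H3.3WT library. The H3.3G34R libraries with 354.6 and 1209 share a title code and may not be independent. Gdnf averaged 653.4 ± 416 in Atrx-floxed H3.3G34R and 86.65 ± 25.7 in Atrx-floxed H3.3WT tumours (SD, n = 4 each). The log2 change was 2.74 with a standard error of 0.48 on the log2(normalized count + 1) scale, rank 6 by p of 17521 genes tested, and it did not pass adjustment over all genes (limma, adjusted p = 0.546).

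In Atrx-intact tumours the same comparison gave wider spread. Gdnf had 747.2, 109.9 and 351.4 normalized counts in Atrx-intact H3.3G34R tumours, against 182.2, 95.67, 41.03 and 256.3 in Atrx-intact H3.3WT tumours. These groups overlapped: 1 H3.3G34R library lay within the H3.3WT range and the other 2 lay above it. The log2 change was 1.39 (SE 0.825), with a limma adjusted p of 1. Leaving out single libraries gave log2 changes between 0.754 and 2.12 in this comparison.

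Set against Atrx-intact H3.3WT tumours, Gdnf in Atrx-floxed H3.3G34R tumours again did not overlap, with 314 as the lowest value in Atrx-floxed H3.3G34R tumours and 256.3 as the highest in Atrx-intact H3.3WT tumours. The log2 change was 2.26 (SE 0.65, limma adjusted p = 0.996). Over all 15 libraries Gdnf averaged 546 ± 373 in H3.3G34R tumours (SD, n = 7) and 115.2 ± 71.3 in H3.3WT tumours (SD, n = 8). That pooled log2 change was 2.06 (SE 0.485), rank 3 of 17776 genes by p, with a limma adjusted p of 1. These contrasts share libraries, so they are not independent of each other. The members were chosen with earlier results of these data known. The ranks of Gdnf by p and its lack of overlap are therefore descriptions and no separate evidence.

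Neuron marker sums also lay apart between the Atrx-floxed groups. The summed count of 8 neuron markers was 2186 to 14930 in Atrx-floxed H3.3G34R and 854 to 1407 in Atrx-floxed H3.3WT tumours, so these sums did not overlap. The 14930 is that of Atrx-floxed H3.3G34R replicate 3, and the rest of that group held 2186 to 2899. All 8 markers had a positive log2 change there, 5 of them at an unadjusted p under 0.05; limma and edgeR called 0 and DESeq2 called 2, and none was at 0 in any library. Neurons were not the only such list: 6 of 6 mature oligodendrocyte markers (median 0.919) and 6 of 7 astrocyte markers (median 0.165) were positive too. Of these, 0 and 1 had an unadjusted limma p under 0.05. Endothelial markers were positive in 1 of 5. The sums of oligodendrocyte progenitor markers, 153200 to 292500 in Atrx-floxed H3.3G34R and 205300 to 287800 in Atrx-floxed H3.3WT tumours, overlapped. In the library with the highest neuron sum, 210600, Gdnf was at its lowest of all libraries (41.03), and the library with the highest Gdnf, 1209, had a neuron sum of 2350. The part of neuronal tissue or other cell types in the Gdnf difference was not tested.

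The call on Gdnf differed between tests. DESeq2 on the recovered reads called it in Atrx-floxed tumours (log2 change 2.92, adjusted p = 6.92e-06) and in the pooled H3.3G34R contrast (log2 change 2.20, adjusted p = 0.00838), whereas edgeR's quasi-likelihood test did not (adjusted p = 0.642 and 1). The authors' deposited tables also come from DESeq2 on these libraries, so they are not a separate method. They give 2.92 (SE 0.489) with an adjusted p of 6.86e-06 in Atrx-floxed tumours, and 1.48 with an adjusted p of 1 in Atrx-intact tumours. Leaving out any 1 library kept the limma log2 change in Atrx-floxed tumours between 2.37 and 3.02, and it was 2.51 without Atrx-floxed H3.3WT replicate 1. With libraries that share a title code averaged, it was 2.67 (SE 0.437, limma adjusted p = 0.741). The effect of H3.3G34R was not shown to depend on Atrx: the interaction was 1.35 (SE 0.97, limma adjusted p = 1), with 0.612 without Atrx-intact H3.3G34R replicate 2 and 1.99 without replicate 1 of that group as the lowest and highest values when 1 library was left out. With H3.3WT, the log2 change of Atrx-floxed against Atrx-intact tumours was -0.49 (SE 0.609, limma adjusted p = 0.975), and leaving out 1 library gave -0.99 (without Atrx-intact H3.3WT replicate 3) to -0.11 (without replicate 4 of that group). Between the H3.3G34R groups, the log2 change of Atrx-floxed against Atrx-intact tumours was 0.865 (SE 0.694, limma adjusted p = 1). Leaving out Atrx-intact H3.3G34R replicate 2, the lowest of its group, gave 0.133, and averaging libraries that share a title code gave 0.474.

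The counts called over all genes set the background for these tests. In the comparison of H3.3G34R with H3.3WT, limma called 0% of 17521 genes in Atrx-floxed and 0% of 17873 genes in Atrx-intact tumours. At an unadjusted p under 0.05 there were 488 and 262 genes, edgeR called 0 in both, and DESeq2 called 34 and 11. Groups did not overlap, with the H3.3G34R libraries higher, in 0.959% of genes in Atrx-floxed and in 1.23% in Atrx-intact tumours. The authors' deposited tables call 0.182% and 0.0578% of genes. Against Atrx-intact tumours of the same histone, limma called 0.0229% of genes with H3.3G34R and 0.0335% with H3.3WT, groups did not overlap with the Atrx-floxed libraries higher in 2.34% and 1.39%, and the authors' deposited tables call 0.538% and 0.352%. Between Atrx-floxed H3.3G34R and Atrx-intact H3.3WT tumours these shares were 0.0227%, 1.57% and, in the authors' deposited table, 0.38%. The fit on all 15 libraries called 0.0956% of 17776 genes for floxed Atrx, 0% for H3.3G34R (382 genes at an unadjusted p under 0.05, 0 by edgeR, 12 by DESeq2) and 0% for the interaction (365 genes at an unadjusted p under 0.05, 0 by edgeR, 10 by DESeq2).

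Of the 8 members, 7 passed the filter of a mean of at least 10 and were tested in every comparison, and Ntf3 in none. Limma called 0 members in any comparison, edgeR called 0, and DESeq2 called Gdnf alone in the 2 comparisons above. At an unadjusted p under 0.05, limma listed Gdnf in 3 comparisons (H3.3G34R in Atrx-floxed tumours, Atrx-floxed H3.3G34R against Atrx-intact H3.3WT, and pooled H3.3G34R), Ntrk2 in 2 (Atrx-floxed against Atrx-intact with H3.3WT, and floxed Atrx pooled) and Ret in 1 (floxed Atrx pooled). Over all genes tested the share at an unadjusted p under 0.05 was 2.79%, 4.37% and 2.15% in the Gdnf comparisons in that order, 3.76% for Atrx-floxed against Atrx-intact with H3.3WT and 4.87% for floxed Atrx pooled.

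**Figure D2:**
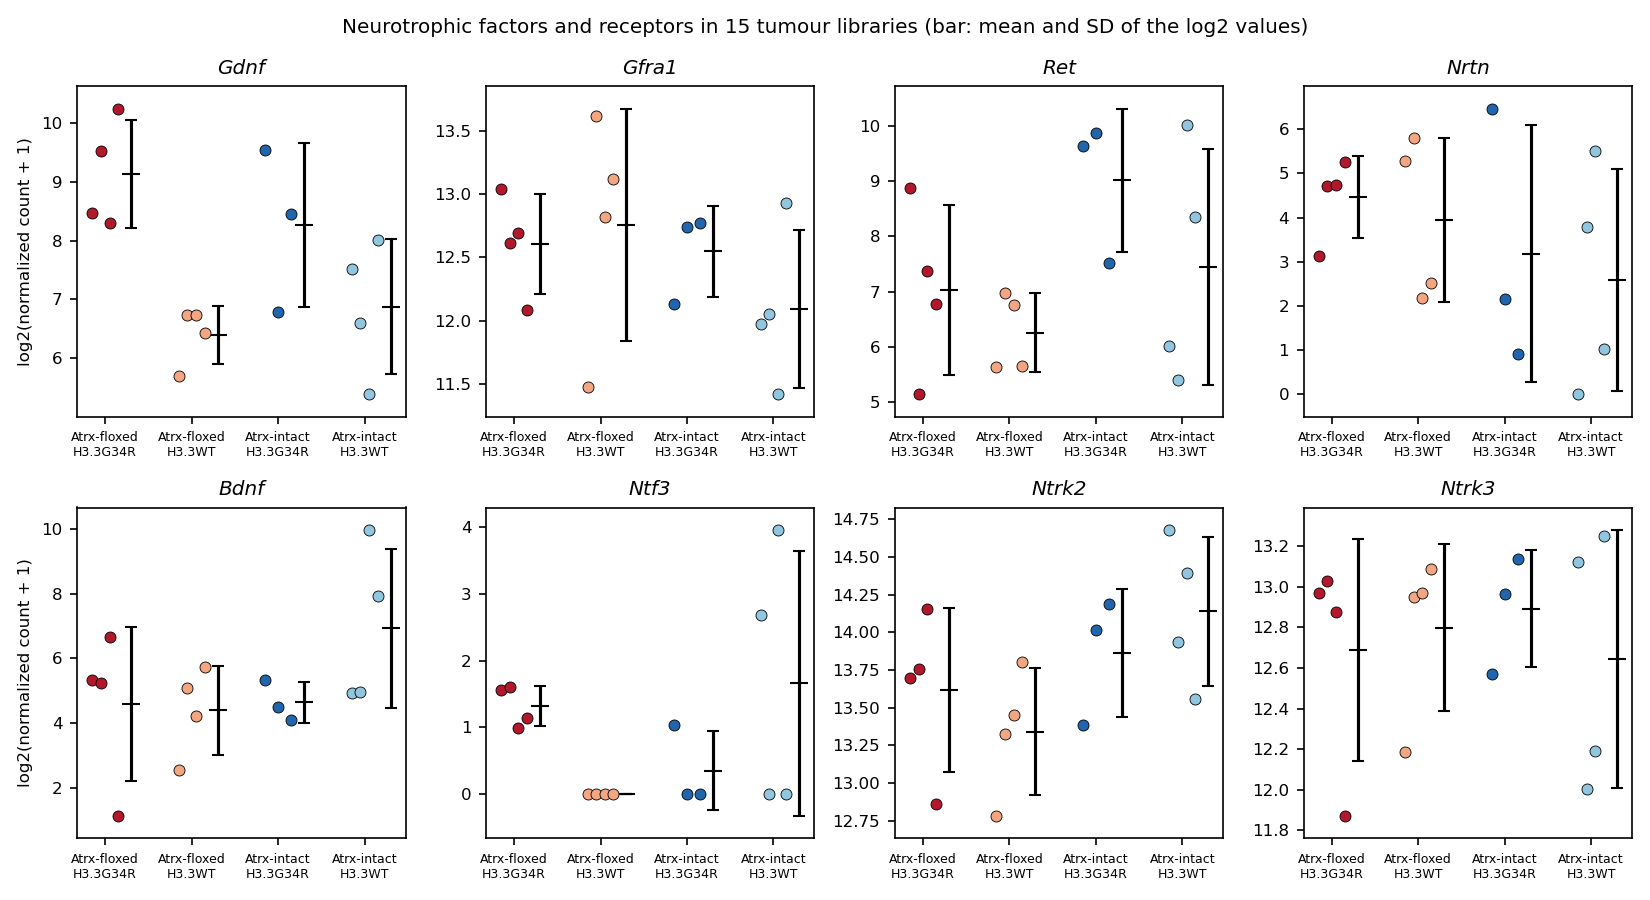
Normalized counts of the 8 genes, as log2(normalized count + 1) on the vertical axis, in each of 15 libraries of the 4 groups, with the mean and SD of the log2 values beside the points. Gdnf in the 4 Atrx-floxed H3.3G34R libraries lay above all 4 Atrx-floxed H3.3WT libraries, and 1 or 2 libraries carry the high Bdnf values of the Atrx-intact H3.3WT tumours.

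The receptors of this ligand overlapped between the groups. Gfra1, the co-receptor that binds GDNF (ENSMUSG00000025089, chromosome 19, 58235604 to 58455909, minus strand), had 8416, 6268, 6604 and 4349 normalized counts in Atrx-floxed H3.3G34R tumours, against 2845, 12560, 7215 and 8896 in Atrx-floxed H3.3WT tumours. The Atrx-floxed H3.3G34R libraries lay inside the range of the Atrx-floxed H3.3WT libraries, and the log2 change was -0.14 (SE 0.42, limma adjusted p = 1), or -0.57 without Atrx-floxed H3.3WT replicate 1. In Atrx-intact tumours Gfra1 had 4495, 6832 and 6991 normalized counts with H3.3G34R, against 4021, 4243, 2741 and 7793 with H3.3WT, again overlapping (log2 change 0.457, SE 0.378, limma adjusted p = 1). Across all 15 libraries Gfra1 varied 4.58-fold and Gdnf 29.5-fold. Pearson's r between the log2 values of Gdnf and Gfra1 was 0.166 over the 15 libraries, and that between Gdnf and Ret was 0.0251 (Spearman's rho 0.125 and 0.136). Without the 2 libraries farthest from the median of Gdnf these r were 0.0964 and 0.349.

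Ret, the kinase that signals for the GDNF family (ENSMUSG00000030110, chromosome 6, 118151745 to 118197718, minus strand), was uneven within groups. It had 465.4, 34.55, 163.9 and 108.5 normalized counts in Atrx-floxed H3.3G34R and 48.88, 125, 108 and 49.22 in Atrx-floxed H3.3WT tumours. The Atrx-intact tumours reached higher, with 797.1, 934.2 and 182.8 in H3.3G34R and 63.99, 41.46, 1026 and 324.8 in H3.3WT libraries. The highest Atrx-floxed library was at 465.4, and 3 of 7 Atrx-intact libraries lay above it. Pooled over the histone, Ret averaged 137.9 ± 140 in Atrx-floxed (SD, n = 8) and 481.4 ± 425 in Atrx-intact tumours (SD, n = 7), a log2 change of -1.58 (SE 0.715) that did not pass adjustment (limma adjusted p = 0.997). With H3.3G34R alone the log2 change of Atrx-floxed against Atrx-intact tumours was -1.97 (SE 0.889, limma adjusted p = 1). The highest Ret value, 1026, belongs to the library with the high neuron markers, Atrx-intact H3.3WT replicate 3. Without it the pooled limma log2 change was -1.15 (SE 0.625). With H3.3WT alone, the limma log2 change of Atrx-floxed against Atrx-intact tumours was -1.19 with all libraries and -0.344 without that replicate.

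Nrtn, which encodes the ligand neurturin (ENSMUSG00000039481, chromosome 17, 56751325 to 56757530, minus strand), was low in most libraries. It had 7.773, 25.41, 25.67 and 37.38 normalized counts in Atrx-floxed H3.3G34R tumours, against 38.13, 54.91, 3.485 and 4.733 in Atrx-floxed H3.3WT tumours. Atrx-intact tumours gave 87.3, 3.46 and 0.8873 with H3.3G34R, against 0, 12.76, 44.45 and 1.038 with H3.3WT. Every pair of groups overlapped, and the log2 changes had standard errors from 0.917 to 1.76. Leaving out Atrx-intact H3.3G34R replicate 1 moved the log2 change of Atrx-floxed against Atrx-intact tumours with H3.3G34R to 2.92, against 1.28 with all libraries. The single library at 0 reads would allow up to 3 reads, or 3.25 normalized counts, by counting error.

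Bdnf, the ligand of TrkB, is made by neurons in response to activity (ENSMUSG00000048482, chromosome 2, 109674700 to 109727007, plus strand). Most libraries held little: 38.86, 36.59, 99.72 and 1.206 normalized counts in Atrx-floxed H3.3G34R, 4.888, 32.71, 17.42 and 52.06 in Atrx-floxed H3.3WT, and 39.49, 21.63 and 15.97 in Atrx-intact H3.3G34R tumours. The Atrx-intact H3.3WT tumours held 29.28, 29.77, 992.4 and 240.8, so 2 of 4 libraries exceeded every library of the other groups. Those 2 libraries share a title code and may not be independent. The log2 change of Atrx-floxed against Atrx-intact tumours with H3.3WT was -2.55 (SE 1.2, limma adjusted p = 0.975), and that of H3.3G34R against H3.3WT in Atrx-intact tumours was -2.29 (SE 1.24, limma adjusted p = 1).

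Bdnf was highest where neuron markers were highest, and lower down the order the match was loose. The library with 992.4 normalized counts of Bdnf is the one with 210600 summed counts of neuron markers, and the library with 240.8 holds 4322, the third highest of the 15 libraries. Replicate 3 of the Atrx-floxed H3.3G34R tumours, with 99.72 counts of Bdnf, holds the second highest sum, 14930. Atrx-intact H3.3G34R replicate 2 has the next sum below these, 3256, with 21.63 counts of Bdnf. Without Atrx-intact H3.3WT replicate 3, the log2 change of Atrx-floxed against Atrx-intact tumours with H3.3WT was -1.55 and that of H3.3G34R against H3.3WT in Atrx-intact tumours -1.29, both from limma. With libraries that share a title code averaged, these limma log2 changes were -1.88 and -1.45. Astrocyte, mature oligodendrocyte and microglia markers were also highest in that replicate. The part of other cell types in these values was not tested. In Atrx-intact H3.3WT replicate 3 Gfra1 was also lowest of all 15 libraries (2741).

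**Figure D3:**
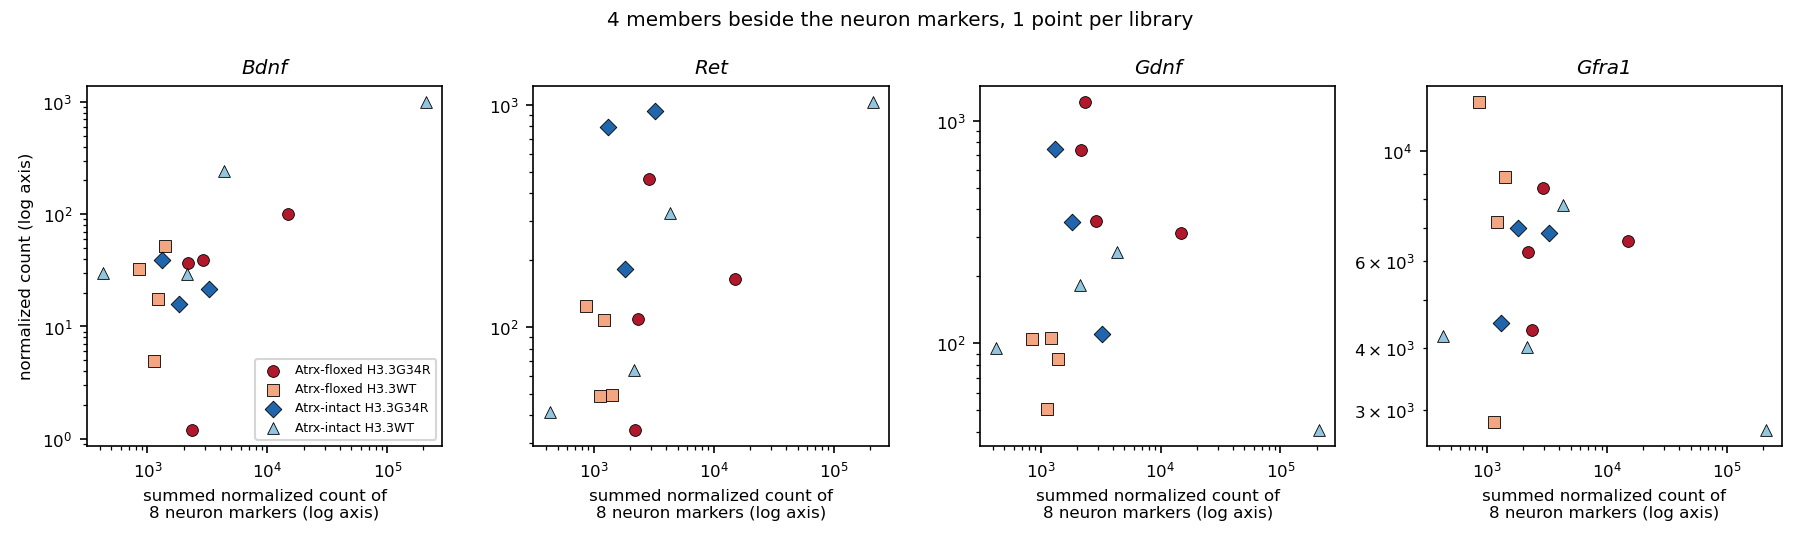
Normalized counts of Bdnf, Ret, Gdnf and Gfra1 (vertical, log axis) beside the summed normalized count of 8 neuron markers (horizontal, log axis), with 1 point per library and symbols for the 4 groups. The point at 210600 is Atrx-intact H3.3WT replicate 3, which holds the highest Bdnf (992.4) and Ret (1026) and the lowest Gdnf (41.03) and Gfra1 (2741).

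Ntf3, the ligand of TrkC (ENSMUSG00000049107, chromosome 6, 126101412 to 126166910, minus strand), was near the limit of detection. It had 1.943, 2.033, 0.9874 and 1.206 normalized counts in Atrx-floxed H3.3G34R tumours, which are 1 or 2 reads each. It had 0 reads in all 4 Atrx-floxed H3.3WT libraries, where 0 reads allow 2.61 to 3.5 normalized counts. Atrx-intact tumours held 1.039, 0 and 0 with H3.3G34R and 5.423, 0, 14.53 and 0 with H3.3WT. The highest value, from 17 reads, again belongs to the library with the high neuron markers, and no fold change is given.

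Both Trk receptors had at least 3751 normalized counts in every library. Ntrk2 (ENSMUSG00000055254, chromosome 13, 58806569 to 59133970, plus strand) had 13280, 13840, 18270 and 7433 normalized counts in Atrx-floxed H3.3G34R and 7058, 10290, 11190 and 14310 in Atrx-floxed H3.3WT tumours. It had 10700, 16570 and 18710 in Atrx-intact H3.3G34R and 26200, 15710, 21520 and 12050 in Atrx-intact H3.3WT tumours. The levels of Atrx-floxed H3.3WT tumours were the lower ones, with 3 of 4 libraries under the lowest Atrx-intact H3.3WT library. That log2 change was -0.81 (SE 0.322, limma adjusted p = 0.975). Pooled over the histone, it was -0.52 (SE 0.242, limma adjusted p = 0.997), with averages of 11960 ± 3750 in Atrx-floxed (SD, n = 8) and 17350 ± 5370 in Atrx-intact tumours (SD, n = 7). The pooled H3.3G34R contrast gave -0.0011 (SE 0.242, limma adjusted p = 1).

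Ntrk3 (ENSMUSG00000059146, chromosome 7, 78175959 to 78738012, minus strand) varied least, 2.6-fold over the 15 libraries. It had 8021, 8355, 7517 and 3751 normalized counts in Atrx-floxed H3.3G34R tumours, against 4667, 7922, 8014 and 8697 in Atrx-floxed H3.3WT tumours. Atrx-intact tumours held 6090, 7995 and 8991 with H3.3G34R, against 8921, 4111, 4681 and 9746 with H3.3WT. Groups overlapped in every comparison and the log2 changes of single pairs lay between -0.21 and 0.25 (limma adjusted p of at least 0.986). The annotated gene Gm9885 overlaps the span of Ntrk3 on the opposite strand and averaged 308 normalized counts of its own. The strand setting of the counting is not given in the sources used here. Overlap of the exons was not checked, and whether reads of either gene were counted for the other was not tested.

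**Figure D4:**
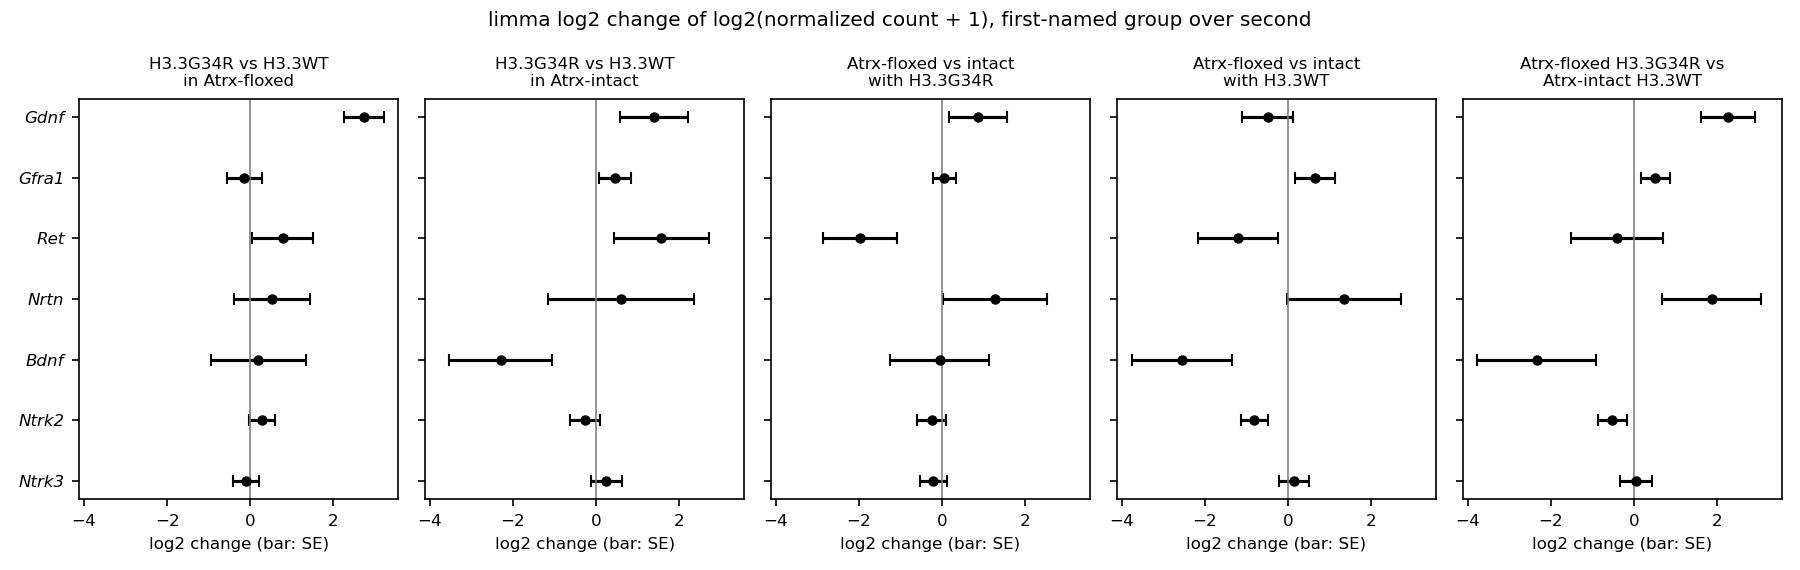
Log2 change of log2(normalized count + 1) from limma (horizontal axis, points) with its standard error (bars) for the 7 tested genes in the 5 pairs of groups, first-named group over second. Gdnf had the largest change in Atrx-floxed tumours with H3.3G34R (2.74), and Gfra1, Ntrk2 and Ntrk3 lay between -0.81 and 0.66 in all pairs.

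Groups next to each other in the order of means were not set apart for any tested member. From the highest mean to the lowest, Gdnf ran Atrx-floxed H3.3G34R, Atrx-intact H3.3G34R, Atrx-intact H3.3WT and Atrx-floxed H3.3WT, and no gap between neighbours exceeded the SD of both. The same held for Gfra1, Ret, Nrtn, Bdnf, Ntrk2 and Ntrk3. Only neighbours were compared in this way, and Gdnf in Atrx-floxed H3.3G34R tumours overlapped neither H3.3WT group. Ntf3 had 1 gap beyond both SDs, between 1.542 ± 0.524 in Atrx-floxed H3.3G34R (SD, n = 4) and 0.3464 ± 0.6 normalized counts in Atrx-intact H3.3G34R tumours (SD, n = 3), which are 1 or 2 reads in each Atrx-floxed library and 1, 0 and 0 reads in the Atrx-intact libraries.

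By likeness of pattern over the 15 libraries (Pearson's r of log2(normalized count + 1), searched over 14773 genes), Gdnf was closest to Eif3e (r = 0.878), Pcbp2 (0.854) and the immediate early gene Nr4a3 (0.839). These were chosen for their r and fall to 0.797, 0.783 and 0.773 without the 2 libraries farthest from the median of Gdnf. For the genes named next, r without the corresponding 2 libraries lay between 0.701 and 0.897, and Spearman's rho over all libraries between 0.674 and 0.929. Bdnf was closest to Slc5a3 (0.901), Mas1 (0.894) and Map9 (0.886), and Ntrk2 to Rabgap1l (0.879), Map2 (0.874) and Wnk3 (0.873). Gfra1 was closest to Ermp1 (0.907), Hsd17b12 (0.869) and Mapk1ip1l (0.868), Ret to Erich2 (0.826), Tmem202 (0.821) and Il33 (0.814), Nrtn to Dnaic2 (0.894), Ptk2 (0.889) and Ccl9 (0.889), and Ntrk3 to Carmil1 (0.895), Zfp770 (0.873) and Bach2 (0.867). Among the members themselves the highest r was that of Gfra1 with Ntrk3 (0.705), and the lowest was that of Nrtn with Ntrk3 (-0.618), with Spearman's rho of 0.539 and -0.743. Without the 2 libraries farthest from the median of the first-named gene these r were 0.578 and -0.555.

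Beside the members, 89 related genes were listed. They are further ligands and receptors of the 2 families, genes of neurotrophin maturation and adaptors of the receptors. The list also holds 20 transcriptional targets of growth factor signalling and 16 other neurotrophic cytokines and factors. Of the 89, 82 to 84 were tested per comparison, and limma called 0 of them in every comparison. With H3.3G34R against H3.3WT in Atrx-floxed tumours, 45 had a positive and 37 a negative log2 change, 1 and 3 of them at an unadjusted p under 0.05, with a median of 0.03 against a median of -0.00078 over all genes tested. In Atrx-intact tumours the counts were 48 and 35, 1 and 0 at an unadjusted p under 0.05. edgeR called 0 listed genes in every comparison, and DESeq2 called 1 in 4 comparisons, Mmp2 each time. Mmp2, a matrix metalloproteinase that can cleave proneurotrophins, averaged 276 ± 81.5 normalized counts in Atrx-floxed H3.3G34R and 2141 ± 2320 in Atrx-floxed H3.3WT tumours (SD, n = 4 each; log2 change -2.14, SE 0.819, limma adjusted p = 1; DESeq2 adjusted p = 0.0407). In the comparison with Atrx-intact H3.3WT tumours, Mmp2 averaged 272.1 ± 80.5 in Atrx-floxed H3.3G34R and 2693 ± 1850 in Atrx-intact H3.3WT tumours (SD, n = 4 each). That log2 change was -2.86 (SE 0.735, limma adjusted p = 0.927, DESeq2 adjusted p = 0.000742). Leaving out 1 library gave -2.82 to -1.42 in the first of these comparisons. Mmp9, another such protease, averaged 1828 ± 920 in Atrx-intact H3.3G34R (SD, n = 3) and 347.5 ± 441 in Atrx-intact H3.3WT tumours (SD, n = 4), with a log2 change of 2.99 (SE 0.882, limma adjusted p = 1).

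Other ligands and receptors of the families gave these values in Atrx-floxed tumours. Gfra2, the co-receptor that binds neurturin, averaged 1762 ± 442 normalized counts with H3.3G34R and 1942 ± 396 with H3.3WT (SD, n = 4 each; log2 change -0.15, SE 0.228, limma adjusted p = 1). Artn, the ligand artemin, averaged 71.19 ± 105 with H3.3G34R and 22.23 ± 5.23 with H3.3WT (SD, n = 4 each; log2 change 0.575, SE 0.857, limma adjusted p = 1). Pspn, Gfra3, Gfral, Ntf5 and Plg stayed below the filter in every comparison. All 20 transcriptional targets of growth factor signalling were tested. With H3.3G34R, 18 had a positive log2 change in Atrx-floxed tumours, with a median of 0.332 and 0 at an unadjusted p under 0.05. In Atrx-intact tumours 13 of 20 did, with a median of 0.108. Over all genes tested, 49.9% and 50% had a positive log2 change in these 2 comparisons. For Atrx-floxed against Atrx-intact tumours, 15 of the 20 were positive with H3.3G34R (median 0.374) and 15 with H3.3WT (median 0.214). Egr2, an immediate early transcription factor, averaged 1509 ± 859 in Atrx-floxed H3.3G34R and 684 ± 548 in Atrx-floxed H3.3WT tumours (SD, n = 4 each; log2 change 1.25, SE 0.57, limma adjusted p = 1).

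Of the adaptors that carry the signal of Ret and Trk receptors, all 24 were tested. Plcg1, phospholipase C gamma, averaged 3656 ± 379 in Atrx-floxed H3.3G34R and 5214 ± 1230 in Atrx-floxed H3.3WT tumours (SD, n = 4 each). Its log2 change was -0.49 (SE 0.201, limma adjusted p = 1). Sh2b3, an adaptor that dampens kinase signalling, averaged 2880 ± 1350 in Atrx-floxed (SD, n = 8) and 1524 ± 373 in Atrx-intact tumours (SD, n = 7), a log2 change of 0.859 (SE 0.247, limma adjusted p = 0.598).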

How the data were processed

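Per the labels' protocols, tumour RNA was purified on Qiagen RNeasy columns and TruSeq mRNA libraries were sequenced. Per the submitters' processing notes, reads were handled with STAR 2.7, HTSeq and DESeq2 on mm10; the gene annotation, whether counting used strand, and further version numbers were not given in the sources used here. For each of 5 pairs of groups, the authors deposited a table of 54232 genes. Per the file headers these hold p-values before and after adjustment, the Wald score, the log2 fold change and its error, and a signal per library. Each library's signal is the read count divided by a size factor set within the table. All values were whole multiples of 1 read (100% within 0.01), so reads were recovered; 3 columns with a step near 1 were not used for this.

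IDs were matched to GENCODE vM21 (54165 IDs, 99.9%). Because the values are normalized, each pair was fitted alone with limma 3.58.1 (trend, robust; R 4.3.3), using log2(value + 1) and only genes whose mean reached 10. A call required a p under 0.05 after Benjamini-Hochberg adjustment over all genes. The pseudocount understates changes of low genes. Contrasts pooled over a factor and the interaction came from 1 fit on all 15 libraries, scaled together by the median of ratios. Values per library and group averages in the text use that common scale. The exception is averages of genes that are no members, which use their pair's table unless they are of Atrx or pooled over a factor. Alternatives were edgeR 4.0.16 and DESeq2 1.42.0 on recovered reads, TMM, no filter, pseudocounts of 0.5 and 5, averaging libraries that share a title code, log2 Xist as covariate, 1 fit for all groups, and each library left out. The limma fit was tested on simulated data. The members and lists were chosen with earlier results of these data known. The text names every member, up to 3 genes with the smallest p of each pathway list per comparison and the 3 genes of most like pattern per member, with predicted genes left out of the likeness search. Intervals and limits for 0 reads cover counting error only. No library was left out.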

Additional observations from a re-analysis of the deposited data

How the results depend on the processing

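No paired analysis was possible because the labels give no replicate number that is shared between groups; replicates were numbered in accession order. No member changed its call under another filter, pseudocount, scaling, covariate or fit of limma, under edgeR, or without any 1 library; DESeq2 called Gdnf in the 2 comparisons given above. The counts of genes called over the whole table were small and moved with the method, and the cause was not tested. DESeq2 called 34 genes for H3.3G34R against H3.3WT in Atrx-floxed and 11 in Atrx-intact tumours, 112 for Atrx-floxed against Atrx-intact with H3.3G34R and 77 with H3.3WT, 77 for Atrx-floxed H3.3G34R against Atrx-intact H3.3WT, 107 for floxed Atrx pooled, 12 for H3.3G34R pooled and 10 for the interaction. For Atrx-floxed against Atrx-intact with H3.3G34R (4 called), no filter gave 12 and edgeR, averaged title codes and the Xist covariate gave 0 each, and leaving out 1 library gave 0 to 5 (5 only without Atrx-intact H3.3G34R replicate 1). With H3.3WT (6 called), edgeR, averaged title codes and the Xist covariate gave 2 each, and leaving out 1 library gave 2 to 8 (8 only without Atrx-intact H3.3WT replicate 3). For Atrx-floxed H3.3G34R against Atrx-intact H3.3WT (4 called), a pseudocount of 0.5, edgeR, averaged title codes and the Xist covariate gave 2 each, and leaving out 1 library gave 2 to 8 (8 only without Atrx-intact H3.3WT replicate 3). For floxed Atrx pooled (17 called), leaving out 1 library gave 10 to 25. DESeq2 gave a log2 change of -3.64 for Bdnf with H3.3G34R against H3.3WT in Atrx-intact tumours (DESeq2 adjusted p = 0.342; -2.29 with limma), and -0.33 for Nrtn in Atrx-floxed against Atrx-intact tumours with H3.3G34R (DESeq2 adjusted p = 1; 1.28 with limma). Leaving out 1 library moved the Nrtn log2 change across 0 in Atrx-floxed tumours (-0.0691 to 1.14) and in Atrx-intact tumours (-1.03 to 1.75) for H3.3G34R, and that of Gfra1 in Atrx-floxed tumours (-0.573 to 0.142). Counts of Ntf3, Nrtn and, in most libraries, Bdnf were low enough for counting error to limit their precision.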
